A study of Homo sapiens with 12 samples.

Results

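RKO and SW48 are established human colorectal cancer cell lines, and their resting transcriptomes are set against each other here as the difference of the untreated RKO arrays minus the untreated SW48 arrays. The comparison uses 4 of the 12 arrays of the series, 2 of untreated RKO and 2 of untreated SW48, and no treated array enters the difference. It covers 14118 genes, read from the 14530 of 37270 probe sets that the platform's annotation pairs with a single gene symbol. Of these genes, 11730 are protein-coding, 2006 noncoding (611 of them microRNA genes) and 382 pseudogenes.

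The series profiles the effect of Nutlin-3a, a small molecule that keeps MDM2 from binding p53, in RKO, SW48 and HCT116 cells. Every group carries wild-type p53 per the labels, which name the lines RKO p53 WT, SW48 p53 WT and HCT116 p53 WT. The groups used below are RKO given 10 µM Nutlin-3a for 8 h, SW48 given the same dose and time, untreated HCT116, untreated RKO and untreated SW48, with 2 arrays each. Each line is 1 cell line and not a set of tumours, so a difference between RKO and SW48 is one between these lines as grown here, and line and culture or array batch cannot be told apart. The labels speak of duplicates and leave unsaid whether these came from separate cultures, so the p-values rest on a spread that may be technical. The extraction text names thyroids and the growth text names HCT116 alone. The 7 measured thyroid marker genes had mean log2 signals of at most 5.81 in RKO and 5.99 in SW48, with thyroglobulin (TG) at 5.08 in RKO and 5.18 in SW48.

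Cells of the colonic lining are joined by tight junctions, adherens junctions and desmosomes, and their identity is held by intestinal transcription factors such as CDX2. Their renewal in the crypt is driven by Wnt signalling, in which beta-catenin switches on target genes that include feedback inhibitors of the pathway. RKO is known as a poorly differentiated line with mutant BRAF and no APC or beta-catenin mutation, while SW48 is known to carry an activating beta-catenin mutation. Both lines are known to lack functional mismatch repair. None of these mutations was measured on the arrays.

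Between the lines, 6311 genes differed at an adjusted p under 0.05 (limma, Benjamini-Hochberg adjustment over the 14118 genes), which is 44.7% of those tested. Of these, 3331 were higher in RKO (23.6% of genes) and 2980 were lower (21.1%). A gene past this threshold is termed called. Values are log2 signals, so a difference of 1 is 2-fold, and each difference is given ± its standard error from the fit with n = 2 arrays per line. Called genes that differed at least 2-fold numbered 1234 (8.74%), 543 higher in RKO (3.85%) and 691 lower (4.89%). At 16-fold or more, 43 genes were higher in RKO and 62 were lower. The median difference over all genes was 0.01. The arrays of a pair correlated at r = 0.997 in RKO and 0.997 in SW48 over all probe sets, against 0.959 to 0.960 between lines. Both RKO arrays lay on the same side of both SW48 arrays for 9862 genes (69.9%).

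**Figure D1:**
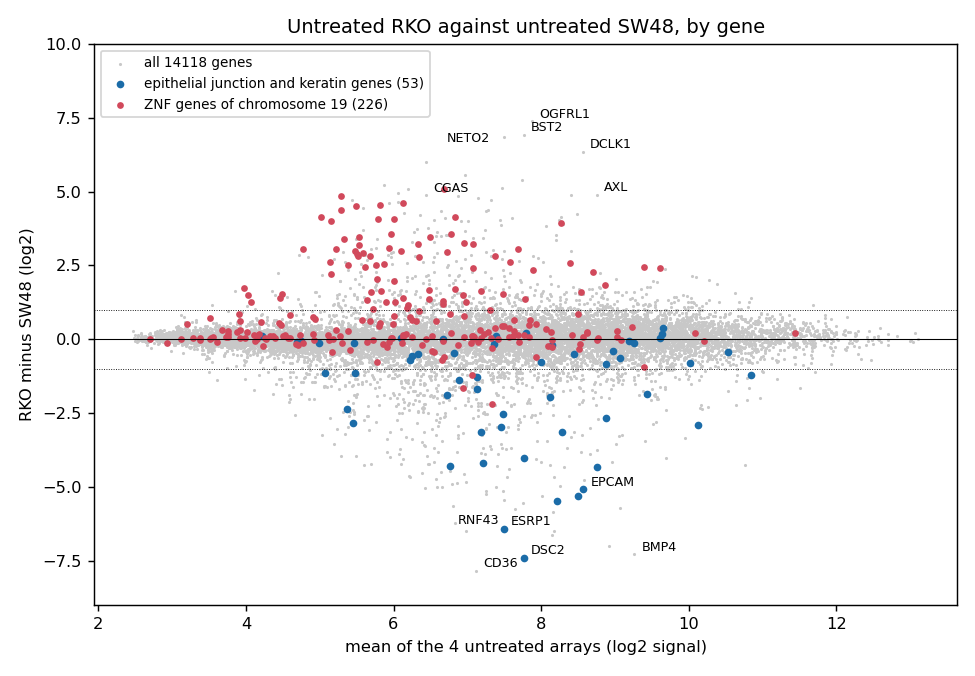
Difference between untreated RKO and untreated SW48 (log2, y axis) against the mean log2 signal of the 4 arrays (x axis), 1 point per gene, with dotted lines at 2-fold. The 53 epithelial junction and keratin genes (blue) spread downward to the -7.40 of DSC2, and the 226 ZNF genes of chromosome 19 (red) spread upward to the 5.08 of ZNF480.

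Among the genes highest in RKO, OGFRL1, a gene related to the opioid growth factor receptor, read 11.61 and 11.52 in RKO, against 4.30 and 4.06 in SW48. Its difference was 7.38 ± 0.091 (adjusted p = 7.8e-12), and the untreated HCT116 arrays, at 9.49 and 9.53, lay nearer to RKO. NETO2, an auxiliary subunit of kainate receptors, read 10.95 and 10.89 in RKO, against 4.33 and 3.82 in SW48. DCLK1, a doublecortin-like kinase used as a marker of tuft cells, read 11.73 and 11.74 in RKO, against 5.61 and 5.18 in SW48. All 3 genes had a clear gap between the lines, with each SW48 array under 6 and each RKO array over 10. Further large differences in this direction were those of PDE7B, a cyclic AMP phosphodiesterase (5.56 ± 0.17), GRPR, the receptor for gastrin-releasing peptide (5.11 ± 0.076), LRP12, a low-density lipoprotein receptor relative (5.09 ± 0.16), and the neuropeptide gene GAL, which encodes galanin (4.88 ± 0.090). C18orf54 (6.01 ± 0.15), GPR63, an orphan G protein-coupled receptor (5.21 ± 0.077), and MTX3, a metaxin of the mitochondrial outer membrane (4.96 ± 0.13), belonged to the same group. GRPR and PDE7B were low in HCT116 as well, at 4.92 and 4.54 on average, while GAL and MTX3 were as high there as in RKO, at 10.93 and 8.72.

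In the opposite direction, CD36, a scavenger receptor that takes up long-chain fatty acids, read 3.22 and 3.18 in RKO, against 11.09 and 10.99 in SW48. This was the largest difference of all genes measured (-7.84 ± 0.082, adjusted p = 6.53e-12), and HCT116, at 3.28 and 3.34, was as low as RKO. ACSL5, which activates long-chain fatty acids to acyl-CoA, read 3.72 and 3.76 in RKO, against 10.16 and 10.30 in SW48. KLK7, a secreted kallikrein protease, read 5.00 and 5.81 in RKO, against 12.45 and 12.41 in SW48. Its pair of RKO arrays differed by more than most, yet both stayed far under the SW48 arrays. GPR15, a G protein-coupled receptor known for lymphocyte homing to the colon (-6.51 ± 0.13), AHR, the ligand-activated aryl hydrocarbon receptor (-6.22 ± 0.11), and ANXA3, a calcium-dependent phospholipid-binding protein (-5.74 ± 0.065), were lower in RKO too. So was NNT, the mitochondrial transhydrogenase that makes NADPH (-5.45 ± 0.12), with array values of 4.71 and 4.84 in RKO, against 10.18 and 10.26 in SW48. The kallikreins, a family picked out after its values were seen, had 7 of 15 measured genes lower in RKO and 0 higher. The share called, 46.7%, was near the 44.7% of all genes. At least 2-fold lower were 4 of them (26.7%, against 4.89% of all genes). KLK6 (-5.70 ± 0.11) and KLK10 (-4.17 ± 0.093) were among them, while KLK2 and KLK3 did not pass the test (0.075 ± 0.13 and 0.028 ± 0.086).

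**Figure D2:**
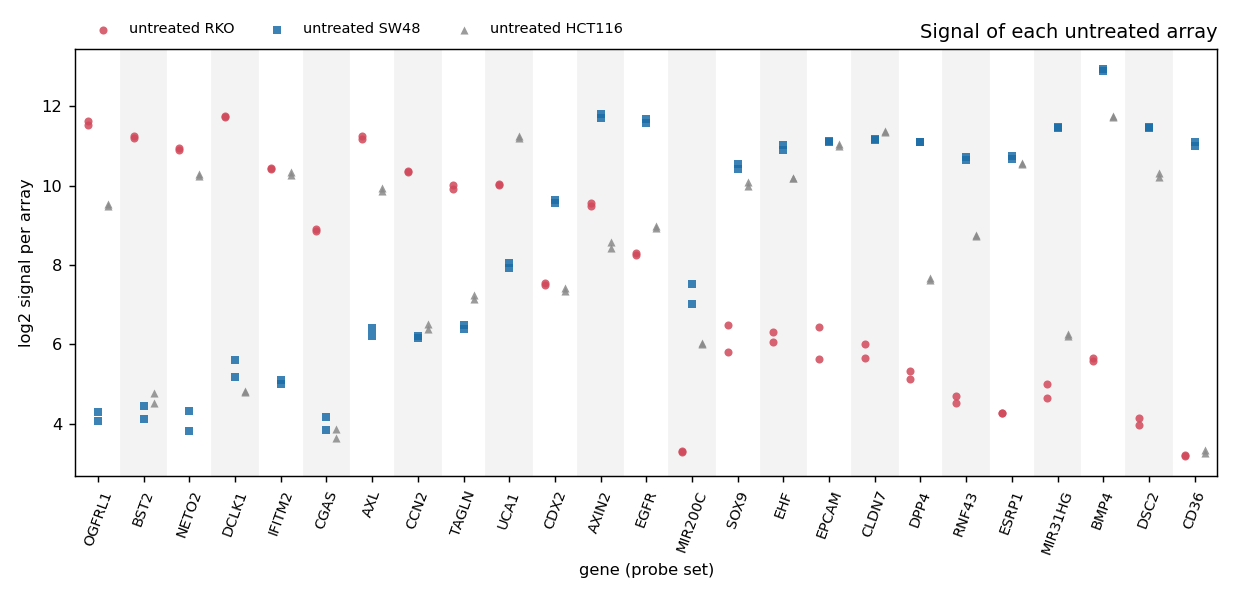
Log2 signal on each untreated array (y axis) for 25 genes (x axis), with RKO as red circles, SW48 as blue squares and HCT116 as grey triangles, 2 arrays each. OGFRL1 to UCA1 sit higher in RKO and CDX2 to CD36 higher in SW48. The genes shown were picked for their differences, so the lack of overlap between RKO and SW48 arrays is no separate result. Over all genes, 69.9% did not overlap.

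Genes of epithelial cell contacts were lower in RKO as a group. Of 53 measured epithelial junction and keratin genes, 37 were lower in RKO and 2 higher at the adjusted threshold, and 26 were at least 2-fold lower with 0 at least 2-fold higher. The median difference was -0.85, beside 0.01 over all genes. DSC2, the desmosomal cadherin desmocollin 2, read 4.15 and 3.97 in RKO, against 11.48 and 11.45 in SW48. EPCAM, the epithelial cell adhesion molecule, read 6.43 and 5.64 in RKO, against 11.11 and 11.12 in SW48. ESRP1, the epithelial splicing regulator, read 4.28 and 4.27 in RKO, against 10.67 and 10.75 in SW48. For all 3 genes both SW48 arrays exceeded 10 and both RKO arrays were under 7, and HCT116 was near SW48 (11.04 and 10.99 for EPCAM and 10.56 and 10.54 for ESRP1). The tight junction gene CLDN7 (-5.32 ± 0.17) and the membrane protease gene ST14, which encodes matriptase (-5.50 ± 0.098), followed.

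Of 7 measured desmosomal cadherin genes, a family picked out after its values were seen, 5 were lower in RKO and 0 higher. That is 71.4% called, against 44.7% of all genes, and 4 were past 2-fold (57.1%, against 4.89% of all genes). These and the other list members named beyond the 4 largest of each list were picked after their values were seen. The plaque proteins plakoglobin (JUP, -4.32 ± 0.091), desmoplakin (DSP, -2.91 ± 0.072) and periplakin (PPL, -1.89 ± 0.10) were lower, as were the cadherins DSG3 (-2.37 ± 0.11) and DSG2 (-1.23 ± 0.072). DSG2 was bright in both lines, at 10.29 and 10.17 in RKO, against 11.46 and 11.47 in SW48. The epithelial transcription factor genes GRHL2 (-4.30 ± 0.19), GRHL3 (-4.04 ± 0.13), OVOL1 (-2.97 ± 0.095) and OVOL2 (-1.27 ± 0.14) were lower too, but the second probe set of OVOL1 differed by -0.19. Keratins varied among themselves: KRT19 differed by -2.52 ± 0.22, KRT8 by -0.45 ± 0.11, and KRT18 did not pass the test (-0.16 ± 0.073, adjusted p = 0.117). The 2 members higher in RKO were CLDN15 (0.22 ± 0.069) and BAIAP2L1 (0.37 ± 0.056).

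The hexamer CACCTG is the core of the E-box bound by repressors of the ZEB and SNAIL families, and it was sought on either strand in the RefSeq promoter windows of GRCh38.p14, which run from 250 bases before to 50 bases after each start site. The hexamer was 1 of 5 motifs scanned and is the one set out in detail here. It was present in 13 of 20 windows (65%) of the epithelial genes at least 2-fold lower in RKO and in 8 of 24 windows (33.3%) of the other epithelial list genes. It was found in 26.2% of the 828 windows of all genes at least 2-fold lower, in 16.3% of the 572 windows of genes at least 2-fold higher and in 19.7% of the 14652 windows of all measured genes that had one. By gene, 13 of the 16 lower epithelial genes with a window held the hexamer (81.2%), against 7 of 17 other epithelial list genes (41.2%), 35.0% of the 529 genes at least 2-fold lower and 24.5% of all 10568 genes with a window. Of the other motifs scanned, CAATAAA was in 5% of the 20 windows of lower epithelial genes and in 0% of the 24 other epithelial windows. The shares were 5% and 8.33% for TGANTCA, 5% and 12.5% for GGAATG, and 0% and 0% for CTTTGAT. These shares were not tested. A match is a description of these letters only. The promoters of CLDN7, with 5 copies, and of TMEM30B, a flippase subunit gene (-4.19 ± 0.064), with 4 copies, are shown as examples of lower epithelial genes whose windows hold several copies. Capitals mark the hexamer on either strand, and the windows lie at chr17:7262429-7262728 (minus strand) and chr14:61281289-61281588 (minus strand).
CLDN7: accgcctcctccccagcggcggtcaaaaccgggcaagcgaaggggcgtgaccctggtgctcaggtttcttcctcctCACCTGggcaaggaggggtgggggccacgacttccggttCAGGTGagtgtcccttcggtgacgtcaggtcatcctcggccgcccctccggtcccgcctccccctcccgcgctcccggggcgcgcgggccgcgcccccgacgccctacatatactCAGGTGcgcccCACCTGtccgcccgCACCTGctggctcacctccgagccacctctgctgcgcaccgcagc
TMEM30B: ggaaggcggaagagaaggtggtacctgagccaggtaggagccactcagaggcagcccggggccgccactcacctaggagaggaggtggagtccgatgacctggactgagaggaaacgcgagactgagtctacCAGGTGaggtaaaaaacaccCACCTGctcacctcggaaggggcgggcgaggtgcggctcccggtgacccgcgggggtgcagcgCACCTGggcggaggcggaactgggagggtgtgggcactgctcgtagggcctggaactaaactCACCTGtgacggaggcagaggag

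Intestinal identity genes were divided. Of 19 intestinal transcription factors, 10 were lower in RKO and 2 higher, with 5 and 1 past 2-fold. CDX2, the master regulator of intestinal fate, read 7.51 and 7.54 in RKO, against 9.63 and 9.57 in SW48. EHF, an epithelial ETS factor, read 6.07 and 6.33 in RKO, against 10.89 and 11.02 in SW48. SOX9, a crypt progenitor factor, read 5.82 and 6.48 in RKO, against 10.53 and 10.42 in SW48. KLF4, a factor of differentiated surface cells, differed by -2.71 ± 0.14. All 4 were lower in both RKO arrays than in either SW48 array, and HCT116 resembled SW48 for EHF (10.20 and 10.20) and SOX9 (10.08 and 9.99) but RKO for CDX2 (7.42 and 7.34). The 2 higher in RKO were the endodermal factors GATA6 (1.01 ± 0.082) and GATA4 (0.67 ± 0.14). CDX1 did not pass the test, at 5.62 and 5.85 in RKO, against 5.89 and 5.66 in SW48.

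Among 37 intestinal differentiation products, 11 were lower in RKO, 2 were higher and 24 did not pass (35.1% called, against 44.7% of all genes). DPP4, a brush-border peptidase, read 5.14 and 5.33 in RKO, against 11.09 and 11.10 in SW48. CEACAM5, the carcinoembryonic antigen, read 4.66 and 4.67 in RKO, against 9.34 and 9.16 in SW48. Both RKO arrays of each were more than 4 log2 units under the SW48 arrays. EPS8L3 (-2.74 ± 0.15) was lower in addition, and CA2, a carbonic anhydrase of colonocytes, was higher (2.65 ± 0.097). Of the markers that define colonic epithelium, VIL1 averaged 5.71 in RKO and 5.98 in SW48, and KRT20 averaged 4.17 in RKO and 4.41 in SW48, so both were dim in both lines. EPCAM, CEACAM5, KRT19 and CDX2 were brighter in SW48, while in RKO CEACAM5 was dim and the other 3 averaged between 6.03 and 7.52. These are only part of the epithelial marker set. KRT8 of that set differed less, KRT18 and CDX1 did not pass the test, and further members are not given here. These values thus do not describe the set as a whole.

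Wnt targets were mostly lower in RKO. Of 27 measured, 18 were lower and 5 higher, with 12 and 2 past 2-fold, and the median difference was -0.68. RNF43, a ubiquitin ligase that removes Wnt receptors from the cell surface, read 4.71 and 4.53 in RKO, against 10.65 and 10.72 in SW48. AXIN2, a scaffold of the beta-catenin destruction complex, read 9.48 and 9.56 in RKO, against 11.70 and 11.80 in SW48. LGR5, the R-spondin receptor of crypt stem cells, read 3.59 and 3.85 in RKO, against 6.73 and 6.78 in SW48. RNF43 and LGR5 were at low signal in RKO, whereas AXIN2 was well above the array median in both lines and still more than 4-fold apart (-2.23 ± 0.067). ZNRF3, the partner of RNF43 (-2.01 ± 0.071), NOTUM, which inactivates Wnt ligands (-3.56 ± 0.11), and KREMEN1, a receptor for Dickkopf proteins (-1.51 ± 0.081), are further feedback genes that were lower. CD44 (-4.68 ± 0.086) and CEMIP, a hyaluronan-binding protein (-3.87 ± 0.15), were lower too. LEF1, a nuclear partner of beta-catenin, ran the other way at 2.94 ± 0.15, and MYC differed by 0.42 ± 0.065. Of 32 ligands, receptors and secreted antagonists of the pathway, 7 were lower and 3 higher, led by the receptor FZD10 (-2.37 ± 0.17). The share called there, 31.25%, was under the 44.7% of all genes.

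Several ligands and inhibitors of BMP and TGF-beta signalling were lower in RKO. Of 33 measured, 14 were lower in RKO and 8 higher (66.7% called, against 44.7% of all genes). BMP4, a ligand and a known Wnt target that is also in that list, read 5.58 and 5.66 in RKO, against 12.89 and 12.94 in SW48. BAMBI, a pseudoreceptor that dampens the pathway, read 8.65 and 8.63 in RKO, against 12.88 and 12.91 in SW48. SMAD7, an inhibitory SMAD, read 6.66 and 6.36 in RKO, against 10.15 and 10.25 in SW48. All 3 were separated between the lines by more than 3 log2 units. BMP7 (-2.39 ± 0.14) and SMAD6 (-2.18 ± 0.11) were lower as well, while the signal transducers SMAD2 (-0.23 ± 0.084), SMAD3 (-0.36 ± 0.077) and SMAD4 (-0.60 ± 0.057) differed less. GDF15, a distant member of the family that p53 induces, was higher (1.99 ± 0.095).

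Mesenchymal genes did not form 1 block. Of 34 measured, 14 were higher in RKO and 6 lower, with 8 and 3 past 2-fold, yet the median difference was 0.09. AXL, a receptor tyrosine kinase for GAS6, read 11.24 and 11.16 in RKO, against 6.41 and 6.20 in SW48. CCN2, a secreted matricellular protein, read 10.36 and 10.34 in RKO, against 6.18 and 6.22 in SW48. TAGLN, an actin-binding protein of smooth muscle, read 10.02 and 9.91 in RKO, against 6.49 and 6.38 in SW48. For CCN2 and TAGLN the HCT116 arrays were nearer to SW48 (means of 6.45 and 7.19), and for AXL they were nearer to RKO (mean of 9.90). EMP3 (4.23 ± 0.069), the nicotinamide methyltransferase gene NNMT (3.40 ± 0.12) and the repressor gene SNAI2 (2.78 ± 0.15) were higher. ZEB1, a repressor of epithelial genes, differed by 0.71 ± 0.071, with array values of 5.94 and 6.07 in RKO, against 5.31 and 5.28 in SW48. VIM, which encodes vimentin, did not pass (-0.094 ± 0.083, adjusted p = 0.408) and its probe set was dim in both lines, and a dim probe set does not show absence of the transcript. LOXL1 (-2.24 ± 0.072), ENG (-1.92 ± 0.12) and S100A4 (-1.23 ± 0.082) were lower in RKO.

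**Figure D3:**
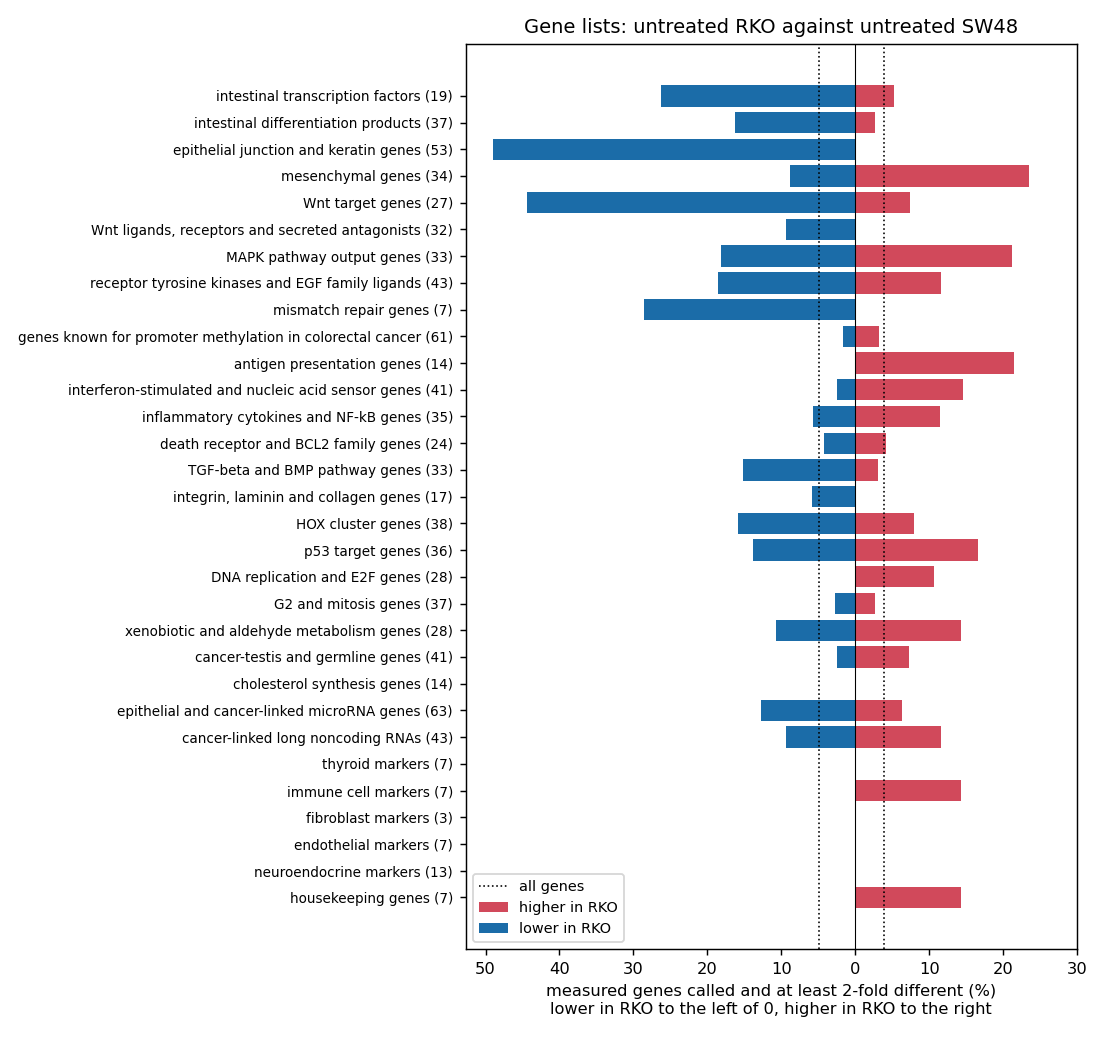
Share of the measured genes of each list (number in brackets) that was called and at least 2-fold lower (blue, left of 0) or higher (red, right of 0) in untreated RKO than in untreated SW48, in percent, with dotted lines at the shares over all genes, 4.89 and 3.85. The longest bars to the left are those of the epithelial junction and keratin genes and the Wnt target genes.

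Receptor tyrosine kinases and their ligands differed in both directions. Of 43 measured kinases and EGF family ligands, 11 were lower in RKO and 10 higher. The share called, 48.8%, was near the 44.7% of all genes. EGFR read 8.26 and 8.31 in RKO, against 11.68 and 11.58 in SW48. Its ligands divided: EREG, which encodes epiregulin, read 4.76 and 5.07 in RKO, against 10.04 and 10.08 in SW48. BTC, betacellulin, differed by -3.62 ± 0.15, whereas HBEGF (1.76 ± 0.064) and the ERBB4 ligand NRG4 (2.68 ± 0.17) were higher. ERBB3 (-1.54 ± 0.066) and the ephrin receptors EPHA1 (-3.81 ± 0.092) and EPHB3 (-1.91 ± 0.11) were lower, and besides AXL the receptor FGFR1 was higher (1.78 ± 0.11). EREG, BTC and PARM1 stand next to each other among measured genes of chromosome 4, and all 3 were lower by at least 3.62.

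Of 33 genes that report on MAPK signalling, 19 were higher in RKO, 12 lower and 2 not called, with a median difference of 0.44. This list had members past 2-fold in both directions, 7 higher and 6 lower. DUSP4, a nuclear ERK phosphatase, read 5.65 and 5.08 in RKO, against 9.07 and 9.02 in SW48. DUSP6, the cytoplasmic ERK phosphatase (-1.03 ± 0.062), and the immediate early genes JUNB (-1.95 ± 0.065) and EGR1 (-1.20 ± 0.064) were lower, while SPRY2, a feedback inhibitor (1.57 ± 0.072), and the ETS factors ETV4 (1.40 ± 0.077) and ETV5 (0.88 ± 0.061) were higher. DUSP5 was higher by 1.87 ± 0.12 on the probe set used, but its second probe set differed by -0.10.

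A small set of antiviral genes was much brighter in RKO. BST2, which encodes tetherin, read 11.25 and 11.20 in RKO, against 4.46 and 4.14 in SW48. CGAS, the cytosolic DNA sensor, read 8.85 and 8.91 in RKO, against 3.84 and 4.17 in SW48. IFITM2, an endosomal restriction factor, read 10.42 and 10.44 in RKO, against 5.09 and 5.00 in SW48. In SW48 all 3 read under 5.2 on both arrays, and HCT116 was equally low for BST2 (4.54 and 4.78) and CGAS (3.88 and 3.66) but not for IFITM2 (10.34 and 10.27). Of 41 measured genes of the interferon-stimulated list, 11 were higher, 11 lower and 19 not called, with a median of 0.03. At least 2-fold higher were 6 of them (14.6%, against 3.85% of all genes), and 1 was at least 2-fold lower (2.44%, against 4.89% of all genes). The RNA sensors IFIH1 (-0.87 ± 0.086), RIGI (-0.58 ± 0.087) and TLR3 (-1.04 ± 0.068) and the effectors IFIT1 (-0.65 ± 0.11) and IFIT2 (-0.53 ± 0.16) were lower in RKO. Of 14 antigen presentation genes, 4 were higher and 3 lower, with a median of -0.08. The share called, 50%, was near the 44.7% of all genes. At least 2-fold higher were 3 (21.4%, against 3.85% of all genes), and 0 were at least 2-fold lower. Among the higher genes were B2M, the light chain of class I molecules (1.00 ± 0.058), and the adhesion molecule gene ICAM1 (3.36 ± 0.078). ICAM1 read 9.91 and 9.85 in RKO, against 6.48 and 6.57 in SW48. Among 35 inflammatory genes, 11 were higher and 6 lower (48.6% called, near the 44.7% of all genes). The epithelial cytokine gene IL18 read 3.91 and 4.24 in RKO, against 9.10 and 9.09 in SW48. CD68, listed as an immune cell marker and known in many cell types, was higher (1.94 ± 0.063). Other defining immune markers were dim, with CD14 at 3.99 in RKO and 3.86 in SW48 and TYROBP at 5.54 in RKO and 5.72 in SW48.

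Zinc finger genes of chromosome 19 were higher in RKO in large number. The family was picked out after its values were seen. Most genes of this family encode KRAB zinc finger proteins, which silence transposable elements, and they lie in clusters along the chromosome. Of 226 measured genes named ZNF on chromosome 19, antisense and divergent transcripts left out, 119 were higher in RKO and 13 lower. That is 58.4% called, against 44.7% of all genes. At least 2-fold higher were 75 (33.2%, against 3.85% of all genes), and 3 were at least 2-fold lower. The median difference of the 226 genes was 0.31, beside 0.06 for the 243 ZNF genes of other chromosomes. Of those 243 genes, 83 were higher and 46 lower (53.1% called), 17 and 8 of them past 2-fold. ZNF480 read 9.35 and 9.09 in RKO, against 4.07 and 4.22 in SW48. ZNF681 read 7.56 and 7.87 in RKO, against 2.74 and 2.96 in SW48. ZNF284 read 8.19 and 7.99 in RKO, against 3.59 and 3.53 in SW48. For these genes each SW48 array lay under 5 and each RKO array above 7. In the opposite direction ZNF426 (-2.19 ± 0.066), ZNF614 (-1.65 ± 0.081) and ZNF586 (-1.22 ± 0.12) were the 3 genes at least 2-fold lower. Near-identical members of such families may share probes, so values of single members are uncertain.

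On chromosome 19, 10.3% of the 1013 measured genes were at least 2-fold higher in RKO, against 3.85% over all chromosomes. Of these 104 genes, 75 were the ZNF genes described above, so this share is mostly the same genes counted again. Over the whole genome, 26 runs of 3 or more neighbouring measured genes were all called and at least 2-fold different in the same direction, 17 higher and 9 lower, holding 93 genes. Of these, 12 of the higher runs were on chromosome 19 and each held ZNF genes. One such run held ZNF223, ZNF284, ZNF224, ZNF225 and ZNF234, with differences from 2.52 to 4.53. Another held ZNF91, ZNF675, ZNF681 and ZNF254, from 2.51 to 4.86. A run of ZNF605, ZNF26, ZNF140, ZNF10 and ZNF268 on chromosome 12 was higher as well, from 2.08 to 4.44. The protocadherin beta genes of chromosome 5 are another clustered family picked out after its values were seen. Of 19 measured members, pseudogenes included, 11 were higher and 2 lower (68.4% called, against 44.7% of all genes). PCDHB8 stood at 4.64 ± 0.14 and PCDHB2 at 3.53 ± 0.092.

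**Figure D4:**
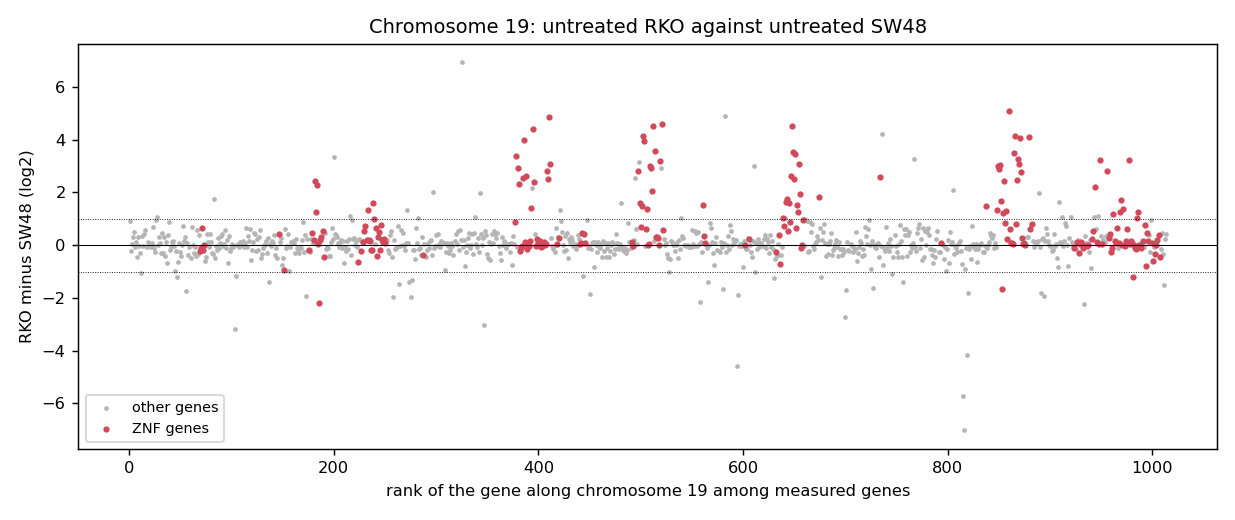
Difference between untreated RKO and untreated SW48 (log2, y axis) for measured genes in their order along chromosome 19 (x axis, rank), with ZNF genes in red, other genes in grey and dotted lines at 2-fold. The ZNF genes above the upper line stand in several clusters, and many ZNF genes between them lie near 0.

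A gene was termed switched where both arrays of one line were under their array's median of all probe sets and the other line was at least 4-fold higher. The 32 windows of switched chromosome 19 ZNF genes held a median of 20 CpG pairs, as did the 246 windows of all measured chromosome 19 ZNF genes, and the median over all 14652 windows was 22. The promoter of ZNF284, with 20 CpG pairs, is shown because its count equals the median of the switched ZNF genes, and that of BST2, with 2, as a CpG-poor promoter among the largest differences. Capitals mark CpG pairs, and the windows lie at chr19:44071909-44072208 (plus strand) and chr19:17405581-17405880 (minus strand).
ZNF284: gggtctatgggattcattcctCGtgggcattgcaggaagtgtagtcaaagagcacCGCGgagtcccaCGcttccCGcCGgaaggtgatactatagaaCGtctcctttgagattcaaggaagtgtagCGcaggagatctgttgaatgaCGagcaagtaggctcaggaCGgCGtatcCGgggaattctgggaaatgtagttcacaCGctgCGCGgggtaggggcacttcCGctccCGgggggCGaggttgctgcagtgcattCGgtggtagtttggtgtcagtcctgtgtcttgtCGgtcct
BST2: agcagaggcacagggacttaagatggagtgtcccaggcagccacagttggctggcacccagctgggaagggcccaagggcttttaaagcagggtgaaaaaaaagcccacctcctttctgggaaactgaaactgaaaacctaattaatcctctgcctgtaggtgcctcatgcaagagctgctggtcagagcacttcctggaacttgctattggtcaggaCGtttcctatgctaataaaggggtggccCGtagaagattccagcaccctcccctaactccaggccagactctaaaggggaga

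Switched genes numbered 87 in the direction of RKO and 85 in the direction of SW48. Of the 87 that were high in RKO and low in SW48, 37 were named ZNF and 35 lay on chromosome 19. Of the 85 that were low in RKO and high in SW48, 1 was named ZNF and 2 lay on chromosome 19. Low in HCT116 too were 33 of the first set and 36 of the second. HCT116 was nearer to RKO than to SW48 for 267 of the 543 genes at least 2-fold higher in RKO and for 419 of the 691 at least 2-fold lower. Both lines were low for 3609 genes (25.6%), for which a dim signal does not show absence of the transcript.

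HOX genes differed in both directions. Of 38 measured HOX cluster genes, 13 were lower in RKO and 11 higher (63.2% called, against 44.7% of all genes). The longest run of neighbours in the genome, with 6 genes, was HOXB5, HOXB6, HOXB7, HOXB8, HOXB9 and MIR196A1 on chromosome 17, all lower by 1.25 to 2.62. HOXB6 read 7.49 and 7.47 in RKO, against 9.57 and 9.68 in SW48. HOXB2, at the other end of the cluster, was higher (0.86 ± 0.15). HOXD9 (2.47 ± 0.18) and HOXC8 (1.51 ± 0.097) were higher too, and HOXA2 was lower (-1.53 ± 0.13). HOXD9 read 6.94 and 7.02 in RKO, against 4.69 and 4.32 in SW48, with SW48 on the level of HCT116 (4.55 and 4.61).

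MicroRNA genes were read through probe sets of the precursor locus, which can also pick up a host transcript, so levels of mature microRNAs were not measured. Of 611 measured, 64 were called higher in RKO and 37 lower, smaller shares than the 23.6% and 21.1% of all genes. Past 2-fold were 7 higher and 13 lower, also smaller shares than the 3.85% and 4.89% of all genes. The loci named below are therefore exceptions among microRNA genes. MIR200C, whose product silences ZEB1 and ZEB2, read 3.31 and 3.29 in RKO, against 7.01 and 7.51 in SW48. Its neighbour MIR141 on chromosome 12, chosen after its values were seen, differed by -1.17 ± 0.17, while MIR200A, MIR200B and MIR429 of the chromosome 1 cluster did not pass (-0.24 ± 0.11, 0.083 ± 0.097 and -0.22 ± 0.081). Both RKO arrays of MIR200C lay below 3.5, and HCT116, with a mean of 6.02, lay between the lines. MIR31 read 6.51 and 6.46 in RKO, against 8.68 and 8.52 in SW48, and its host transcript MIR31HG read 4.66 and 5.00 in RKO, against 11.46 and 11.45 in SW48. MIRLET7A2 (-2.57 ± 0.22) and MIR100 (-1.11 ± 0.11) lie with their host MIR100HG (-1.21 ± 0.085) in a run that was lower, and MIR21 (1.54 ± 0.24) and MIR155 (1.16 ± 0.097) were higher. The mature sequences below, from RefSeq with build GRCh38.p14, are those of the MIR200 family and of MIR31, MIRLET7A2 and MIR196A1, chosen after their values were seen from loci that the text describes, with the seed (bases 2 to 8) in capitals. The loci MIR200C, MIR429 and MIR200B, whose sequence is not shown, share the seed AAUACUG, and MIR141 and MIR200A share AACACUG.
hsa-miR-200c-3p: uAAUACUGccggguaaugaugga
hsa-miR-429: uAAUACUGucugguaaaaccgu
hsa-miR-141-3p: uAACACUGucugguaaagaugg
hsa-miR-200a-3p: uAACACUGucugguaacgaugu
hsa-miR-31-5p: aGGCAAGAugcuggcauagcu
hsa-let-7a-5p: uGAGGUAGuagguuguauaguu
hsa-miR-196a-5p: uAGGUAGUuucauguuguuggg

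Long noncoding RNAs of the cancer-linked list were higher in 16 and lower in 9 of 43 cases. That is 58.1% called, against 44.7% of all genes. UCA1, an RNA known from bladder and colorectal cancer, read 10.02 and 10.03 in RKO, against 7.93 and 8.06 in SW48, and its second probe set differed by 1.02. PURPL, a p53-induced RNA, differed by 2.03 ± 0.14, and LINC00673 by -2.87 ± 0.094. Outside that list, MYO16-AS1 (-5.65 ± 0.14), LINC03033 (-5.55 ± 0.094), LINC00842 (-4.75 ± 0.10) and SH3PXD2A-AS1 (-4.67 ± 0.11) had the largest differences downward. LYPLAL1-DT (4.37 ± 0.083), the vault RNA gene VTRNA1-3 (3.63 ± 0.16), ZNF566-AS1 (3.17 ± 0.13), MGC12916 (2.82 ± 0.12) and MIR573 (2.71 ± 0.25) had the largest upward. Reads of an antisense gene and its partner are told apart only as far as the probes allow.

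DNA replication genes leaned to RKO by small amounts. Of 28 measured, 26 were higher and 0 lower, with a median of 0.57, and 3 were past 2-fold. MCM10, a replication initiation factor, read 10.95 and 10.94 in RKO, against 9.63 and 9.59 in SW48. E2F7, a repressor of the E2F family, differed by 1.18 ± 0.084. Of 7 housekeeping genes, 6 were also higher and 0 lower, with a median of 0.34, among them GAPDH (0.41 ± 0.078) and PPIA (0.32 ± 0.088), and genes of higher signal were called higher more often than lower. In genes with a mean of 9 to 11, for example, 40.5% were higher and 27.7% lower, with a median of 0.08. The part of that shift in the replication list was not tested. Of 37 genes of G2 and mitosis, 18 were higher and 5 lower. CDC25A, a phosphatase that activates cyclin-dependent kinases, was higher (1.33 ± 0.074), and HMMR was lower (-1.78 ± 0.096).

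Among 36 p53 targets measured in untreated cells, 15 were higher in RKO and 12 lower (75% called, against 44.7% of all genes). PLK2, a polo-like kinase, read 4.22 and 4.03 in RKO, against 8.56 and 8.75 in SW48. KITLG, the ligand of the receptor KIT, read 6.98 and 6.78 in RKO, against 10.64 and 10.64 in SW48. SPATA18, a gene of mitochondrial quality control, read 4.51 and 4.62 in RKO, against 8.01 and 7.88 in SW48. These were low in RKO on both arrays, while PLK3 (1.39 ± 0.10), AEN, an apoptosis-enhancing nuclease (1.32 ± 0.067), and SESN2 (1.09 ± 0.078) were higher. SULF2, an extracellular sulfatase, was lower (-2.95 ± 0.19), but its second probe set differed by 0.02. In the death receptor and BCL2 family, 6 of 24 genes were higher and 3 lower (37.5% called, under the 44.7% of all genes). BAX stood at 0.62 ± 0.072, BAK1 at 0.66 ± 0.061, PMAIP1, which encodes NOXA, at 1.07 ± 0.067 and BCL2L15 at -2.98 ± 0.090.

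Mismatch repair genes had 3 of 7 members higher and 3 lower. MSH3, which takes part in recognising insertion and deletion loops, read 7.71 and 7.56 in RKO, against 9.92 and 9.79 in SW48. PMS2, an endonuclease subunit of the pathway, differed by -1.01 ± 0.074, and MSH6 by 0.52 ± 0.061. MSH3 was more than 4-fold lower in both RKO arrays and stood in HCT116 at 7.75 and 7.83. Of 61 genes known for promoter methylation in colorectal cancer, 10 were higher and 6 lower (26.2% called, under the 44.7% of all genes). They were led by DAPK1, a death-associated kinase (1.98 ± 0.091), FOXF1 (1.27 ± 0.12) and SFN, which encodes 14-3-3 sigma (-1.65 ± 0.063). Methylation itself was not measured.

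Cholesterol synthesis genes were lower in 11 of 14 cases and higher in 0, with a median of -0.45, and 0 passed 2-fold. INSIG1, a sterol-sensing regulator (-0.88 ± 0.077), SREBF2, the master transcription factor of the pathway (-0.58 ± 0.062), and MVD (-0.62 ± 0.068) were among them. In xenobiotic metabolism, 8 of 28 genes were higher and 9 lower (60.7% called, against 44.7% of all genes). GSTM3, a glutathione transferase, read 7.22 and 7.30 in RKO, against 3.71 and 3.85 in SW48. HMOX1, which degrades haem, differed by 1.31 ± 0.054. Of 41 cancer-testis and germline genes, 5 were higher and 4 lower, with PRAME at 2.57 ± 0.10 and ACTL8 at -2.34 ± 0.11. Of 17 integrin, laminin and collagen genes, 2 were higher and 4 lower (35.3% called, under the 44.7% of all genes). They were led by TNC, tenascin C, which read 4.90 and 4.99 in RKO, against 8.61 and 7.79 in SW48. MATR3, the gene of the nuclear RNA-binding protein Matrin 3, did not differ detectably, at 9.73 and 9.72 in RKO, against 9.73 and 9.72 in SW48 (standard error 0.053).

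Marker lists of other cell types had few calls. Beside the thyroid list, in which 2 of 7 were lower, the fibroblast list had 1 of 3 higher, the endothelial list 1 of 7 higher and 1 lower, and the neuroendocrine list 2 of 13 lower, none of them past 2-fold. The fibroblast markers DCN and LUM read 3.09 and 3.83 in RKO and 3.06 and 3.40 in SW48.

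By chromosome, the median difference ran from -0.10 on chromosome 14 to 0.15 on chromosome 9. Among genes with a mean over 8 in either line, a filter added after the data had been seen, the medians were 0.43 on chromosome 9, 0.35 on chromosome 8, -0.18 on chromosome 7 and -0.40 on chromosome 14. At least 2-fold higher were 7.65% of the genes of chromosome 9 and 6.70% of those of chromosome 8, and 1.10% of those of chromosome 14. Gene copy number was not measured.

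The same comparison in the Nutlin-3a arrays of RKO and SW48, which the untreated difference does not use, called 6303 genes (44.6%), 3385 higher in RKO (24%) and 2918 lower (20.7%). All 1234 genes that differed at least 2-fold in untreated cells had the same sign in treated cells, and 1231 of them were called there in the same direction. Of all 6311 called genes, 6169 (97.8%) kept their sign, beside 66.8% of the 7807 genes not called. Genes called in both sets in the same direction numbered 5180, which is 82.1% of the untreated and 82.2% of the treated calls, and 5 were called in opposite directions. In the treated arrays, the difference was 7.59 ± 0.091 for OGFRL1, 6.90 ± 0.17 for BST2, -7.71 ± 0.082 for CD36, -7.14 ± 0.076 for DSC2 and -5.23 ± 0.19 for EPCAM.

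**Figure D5:**
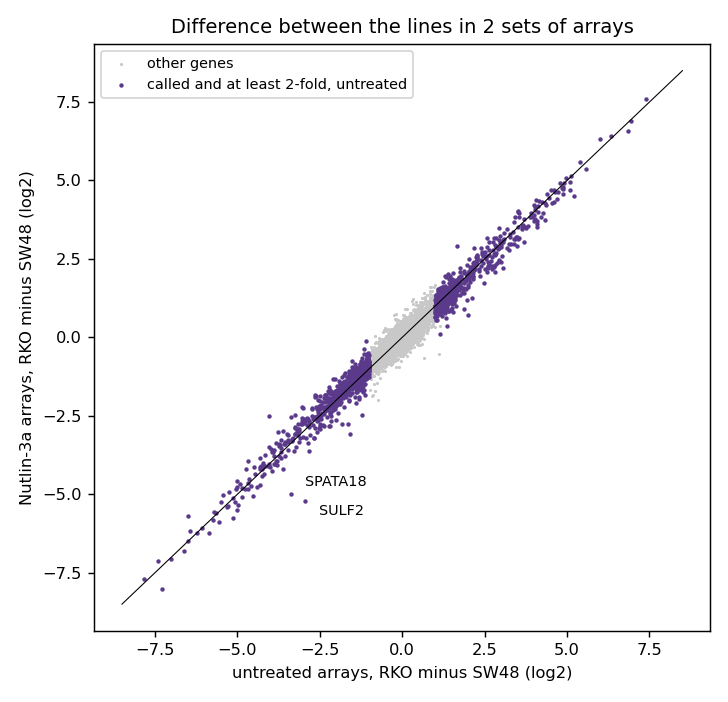
Difference between RKO and SW48 (log2) in the Nutlin-3a arrays (y axis) against the untreated arrays (x axis), 1 point per gene, with the line of equality. Genes called and at least 2-fold different in untreated cells are purple, and all 1234 keep their sign, with SULF2 and SPATA18 among those below the line.

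The test of whether the difference itself depended on Nutlin-3a called 51 of 14118 genes (0.361%), of which 22 were among the 1234. The largest of these among the genes named above were SULF2, with a difference of -5.21 ± 0.19 in treated and -2.95 ± 0.19 in untreated arrays, and SPATA18, with -4.98 ± 0.10 in treated and -3.38 ± 0.10 in untreated arrays.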

How the data were processed

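Each RNA sample was hybridised to 1 Affymetrix Human Gene 2.0 ST array. The authors' deposited values are log2 signals per probe set. Base 2 was taken from their range, 2.22 to 13.45, since it is not stated. Per the submitters' processing notes the GCOS software was used, while the sources used here give neither its version nor the background correction and normalization. The arrays had similar medians, from 4.97 to 5.05. Value columns of no sample numbered 0. The number of arrays limits the precision, and array data carry no read depth.

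Probe sets were named from the platform annotation, and all 14530 gene numbers were found in the RefSeq table of GRCh38.p14. For 395 genes with several probe sets, the one with the highest mean over the 12 arrays was used. No filter on dim signal was applied, and coordinates of probe sets are not reported because their build is not named. limma 3.58.1 in R 4.3.3 fitted 6 group means to all 12 arrays, and moderated variances by empirical Bayes (residual degrees of freedom 6, prior 3.71). The contrasts were RKO minus SW48 untreated, the same in treated arrays, and the difference of both. Calls were made at a Benjamini-Hochberg adjusted p under 0.05. The fit was tested on simulated data.

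The members and the 31 gene lists were chosen with earlier results of these data known, so the lists are described by counts and medians without a set test. Genes were named if called and not overlapping between lines: the 15 protein-coding and 5 noncoding genes with the largest difference in each direction, up to 4 per list, and preset genes. Lists of housekeeping genes and of other cell types are given by range unless 2-fold. Some preset genes are not reported here. Same-numbered arrays deviated together at correlations of -0.127 to 0.0546, so the numbers do not pair the samples. Alternatives covered the arrays fitted, scaling, variance prior, dim probe sets, probe set choice, features tested, threshold, a replicate block and leaving out each of 8 arrays of the lines.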

Additional observations from a re-analysis of the deposited data

Results flagged for a closer look

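For 9 of the 131 genes chosen by the naming rule, the difference between RKO and SW48 itself differed between the Nutlin-3a arrays and the untreated arrays (limma interaction test, adjusted p under 0.05). The values are the RKO minus SW48 difference in treated arrays minus that in untreated arrays, with n = 2 arrays per group. SULF2 stood at -2.26 (adjusted p = 0.0146), SPATA18 at -1.59 (adjusted p = 0.00578) and SDC4, a heparan sulfate proteoglycan, at -0.95 (adjusted p = 0.00578). GPR63 stood at -0.70 and AXIN2 at -0.58. LGR5 stood at 0.81, KITLG at 0.75, GINS2 at 0.63 and MCM10, which like GINS2 acts in replication initiation, at 0.59. The adjusted p-values of these last 6 lay between 0.0255 and 0.0413.

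When each of the 8 arrays of the 2 lines was left out in turn, SDC4 and SPATA18 kept their call in all 8 fits (adjusted p up to 0.039). SULF2 lost it in 5 of 8 fits (up to 0.0756), and its second probe set differed between the lines by 0.02 in untreated cells. AXIN2, GPR63 and MCM10 lost theirs in all 8 (up to 0.162), and GINS2, KITLG and LGR5 in 7 of 8 (up to 0.159). With the replicate number as a block, AXIN2 (adjusted p = 0.0696), GINS2 (0.0565), GPR63 (0.0572), KITLG (0.0543) and LGR5 (0.0565) lost their call as well. Each such fit leaves 1 group with a single array, which is assumed to vary like the others.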

How the results depend on the processing

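In the untreated comparison, the 131 genes chosen by the naming rule kept their direction and their side of the threshold under every alternative they were part of. Apart from preset genes, they were chosen as called and not overlapping in these same arrays, so this is no separate support. Other genes given with values were not run under the alternatives. For genes with a second probe set, that one differed by 2.63 for CCN2, 4.34 for GRPR, 1.14 for NNMT, 1.03 for ZNF224 and -0.42 for EGR1. With all 37270 probe sets tested together, and so more features, 10429 were called in untreated cells, 5563 higher and 4866 lower in RKO, with 980 and 1261 past 2-fold, and 10658 in treated cells, with 989 and 1197 past 2-fold. Leaving out each of the 8 RKO and SW48 arrays in turn gave 5477 to 6292 calls in untreated cells (2865 to 3321 higher, 2583 to 2971 lower, 528 to 571 at least 2-fold higher and 691 to 704 at least 2-fold lower). In treated cells it gave 5345 to 6236 calls, with 576 to 598 at least 2-fold higher and 636 to 672 lower. The 51 calls of the interaction fell to between 7 and 18 without 1 array, to 8 at an adjusted p under 0.01, to 20 with a replicate block and to 32 over all probe sets, and reached 157 with a robust prior that follows intensity; the cause was not tested. The share of untreated calls that were higher in RKO was 52.8%, and 55.1% after centring arrays on their medians, which moved the median of all genes to 0.03. Of the lists whose medians are given above, 0 changed sign under either scaling. With the replicate number as a block, 6190 genes were called in untreated cells, against 6311, and the 131 genes kept their untreated calls, while 5 of the 9 interaction calls given above were lost. Depth is not known for arrays, and probe sets near background limit what can be seen of dim genes.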

Other observations

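Several further gene groups, picked out after their values were seen, differed between untreated RKO and untreated SW48. The calcium-binding S100 genes S100A10 (-4.05 ± 0.27) and S100A16 (-3.15 ± 0.15) were lower in RKO, and the neighbours S100A6, S100A5 and S100A4 on chromosome 1 formed a run that was lower by 1.23 to 2.60. Metallothionein genes of the MT1 group and MT2A encode small metal-binding proteins and were counted with the pseudogene MT1L. Of these 9 genes, 4 were higher and 2 lower (66.7% called, against 44.7% of all genes). These genes are close copies of each other, so values of single members are uncertain. MT1M read 8.60 and 8.87 in RKO, against 5.96 and 5.58 in SW48. MT1G read 4.79 and 4.47 in RKO, against 8.15 and 8.27 in SW48. The arrays of the lines did not overlap for either gene, and the directions were opposite. The microRNA loci MIR24-2, MIR27A and MIR23A, which neighbour each other on chromosome 19, were lower by 1.31 to 1.97. FGFBP1, FGFBP2 and PROM1, which encodes the stem cell surface protein CD133, formed a run on chromosome 4 that was lower by 1.27 to 3.69.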
